A study of Danio rerio with 12 samples.

Results

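The Hox genes of zebrafish were followed across eye and trunk muscle, with and without desmin. All Hox genes of the 7 zebrafish clusters (hoxaa, hoxab, hoxba, hoxbb, hoxca, hoxcb and hoxda) were listed by name, 49 in all, and 48 of them could be matched to 1 of the 32520 gene rows of the count files. The row of hoxa4a was not matched and that gene is not analysed here. Messenger RNA had been sequenced from the dissected eye-moving muscles (extraocular muscle, EOM) and from dissected trunk muscle of AB strain zebrafish, all 5 months old. Both tissues came from wild type (WT) fish and from double mutants, desma-/-;desmb-/-, mutated in both genes of desmin, an intermediate filament of muscle fibres. The mutant line was made in the same AB line that supplied the WT fish. The design gave 4 groups of 3 libraries: WT EOM, mutant EOM, WT trunk and mutant trunk. The labels do not say how many fish entered a library, so the p-values below measure the spread between these libraries, which may be partly technical.

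Hox genes encode homeodomain transcription factors that stand in clusters along the chromosome. In vertebrate embryos the genes at one end of a cluster (low paralog group numbers) are active furthest forward, from the hindbrain on, and those at the other end (high numbers) are active towards the tail, so that the set of active Hox genes marks a position along the body. The mesoderm that forms the eye muscles lies in the head, in front of the Hox domains, whereas trunk muscle forms from somites that carry a Hox code. Paralog groups 1 to 3 are called anterior, 4 to 8 central and 9 to 13 posterior below. A gene in 2 clusters of the same letter (hoxa9a and hoxa9b) is a pair of duplicates from the genome duplication of the teleost fishes.

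The libraries held 64544544 to 91115096 reads on the sense strand of genes. Levels are given as normalised CPM, in which each library's reads are brought to one common total. They are not divided by gene length, so levels are compared between libraries for the same gene, and where reads of different genes stand side by side they also follow gene length. Reads are those of the sense strand unless the opposite strand is named. Both rows that the gene name table calls DES were checked for the mutation: 1 held 42503 to 105488 reads in the 6 WT libraries and 1517 to 3648 in the 6 mutant libraries. The other held 0 to 12 reads in every library of either genotype, too few to show a loss, so the check was informative for 1 row only. Mutant trunk library 2 stood apart, with 19402 genes detected against 21556 to 24170 in the other trunk libraries and a normalisation factor of 0.555. The factor was 0.639 and 0.922 in mutant trunk libraries 1 and 3 and 0.963 to 1 in WT trunk. Among the EOM libraries, mutant library 2 had the fewest genes detected, 19431 against 22248 to 24467 in the others. The EOM factors ran from 0.887 to 1.804. The summed level of 14 muscle fibre genes was 288425, 304832 and 144904 CPM in the 3 mutant trunk libraries and 129374 to 150579 CPM in WT trunk, and the part of this difference in the Hox values was not tested. In EOM it was 48704 to 104634 CPM in WT and 43992 to 91190 CPM in the mutant, and none of the 14 was at 0 throughout a group.

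Hox transcripts were abundant enough to count in trunk muscle and close to absent in EOM. All 48 Hox genes together held 11111, 9670 and 12432 reads in the 3 WT trunk libraries against 51, 88 and 53 reads in the 3 WT EOM libraries. On the normalised scale the sum was 140.0, 130.8 and 143.1 CPM in WT trunk and 0.646, 0.765 and 0.479 CPM in WT EOM. The tissues did not overlap, and no EOM library came near any trunk library. The mutants had the same contrast, with 148.0, 205.8 and 142.2 CPM in trunk and 0.515, 0.439 and 0.403 CPM in EOM. Since these are bulk tissues, fewer cells that carry Hox transcripts and less Hox RNA per cell cannot be told apart. The summed level of 20 neuron and spinal cord markers was 109.7, 30.0 and 36.6 CPM in WT trunk and 15.1 to 27.0 CPM in WT EOM. The part of these markers in the Hox values was not tested.

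**Figure D1:**
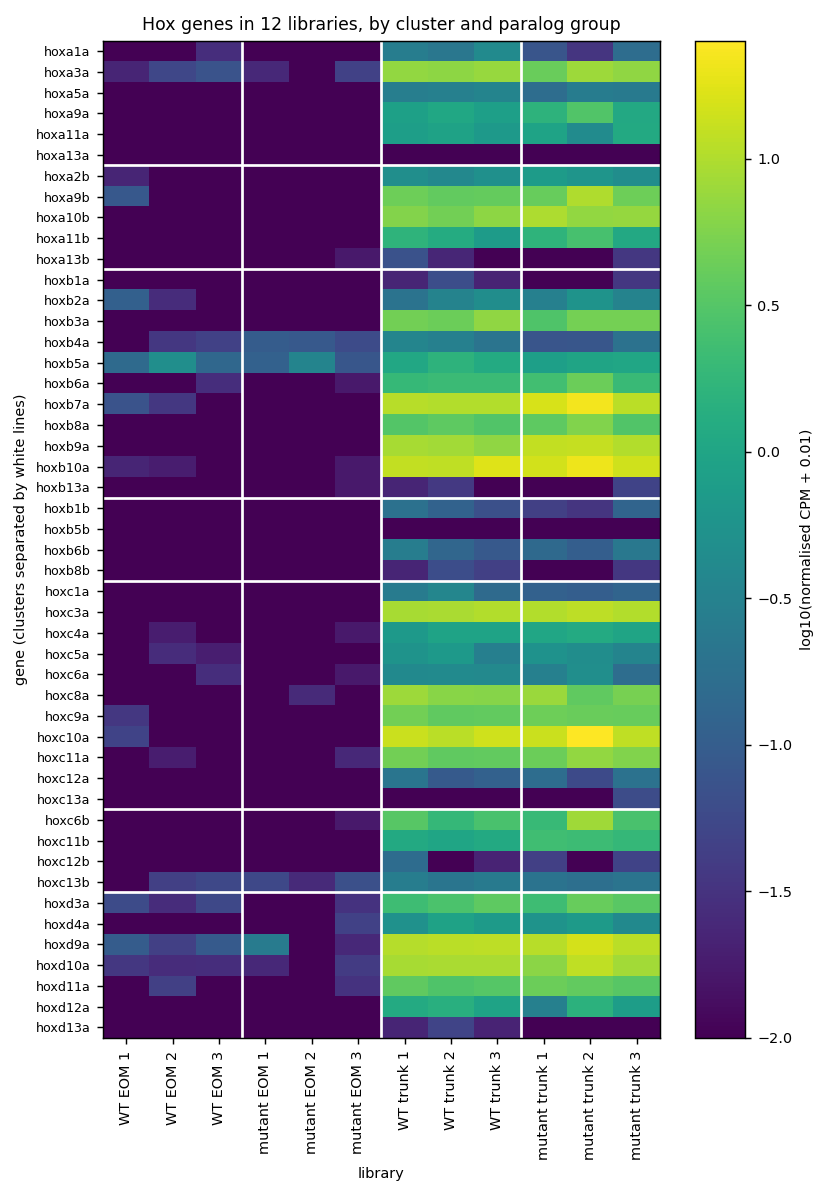
Level of the 48 matched Hox genes (rows, by cluster and then paralog group) in the 12 libraries (columns), as log10 of normalised CPM plus 0.01. The 6 trunk columns on the right carry signal in most rows, the 6 EOM columns are dark except for a few genes such as hoxb5a, and the last genes of most clusters (paralog group 13) are dark in both tissues.

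Gene by gene, 36 members had enough reads to be tested between the tissues in WT, and all 36 were higher in trunk in edgeR's quasi-likelihood test at an adjusted p under 0.05. Of the 18981 genes tested, 13.8% were called higher in trunk and 13.1% lower. In the mutants 31 members were tested and 30 were called higher in trunk, where 3.2% of the 18049 genes tested were called in that direction. These members passed the filter on low counts through the trunk libraries, so the counts describe them and are not support for a difference of the whole family. In WT, 15 of the 36 members tested had no read in any EOM library. With those at a lower bound of 3 reads per EOM library, the median member was 122.4-fold higher in trunk, a log2 difference of 6.92, where the median of all genes tested was -0.01. The fitted log2 values, whose median was 8.66, depend on the prior count for genes without reads.

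Reads of the anterior genes were summed by paralog group, sums that also follow the number and length of the genes. Group 1, which patterns the hindbrain of the embryo, held 54 to 56 reads in each WT trunk library over its 4 genes, and group 2, known for the identity of the second pharyngeal arch, held 52 to 83 over its 2 genes. Group 3 held 1704 to 2440 reads over 4 genes, the most of the anterior groups in every trunk library. In trunk libraries 1, 2 and 3, hoxa3a stood at 7.06, 6.75 and 7.57 CPM in WT and at 4.19, 7.98 and 6.98 CPM in the mutant. The corresponding levels of hoxb3a were 4.7, 4.3 and 6.8 CPM in WT and 2.9, 4.87 and 4.94 CPM in the mutant. For both genes the genotypes overlapped. The level of hoxc3a was 8.99, 9.23 and 10.1 CPM in WT trunk and 10.2, 11.7 and 10.1 CPM in mutant trunk. That of hoxd3a was 2.21, 2.77 and 3.58 CPM in WT and 2.22, 4.09 and 3.4 CPM in the mutant. In EOM neither hoxb3a nor hoxc3a had a read in any of the 6 libraries, which made them at least 173.4-fold and 310.9-fold higher in WT trunk. Both hoxa3a, with 1, 5 and 7 reads, and hoxd3a, with 4, 2 and 5 reads, were seen in WT EOM, and their trunk levels were 167.6-fold (95% exact binomial interval 97.7 to 315.4) and 79.7-fold (44.3 to 160.4) higher. These intervals, and every exact binomial interval given below, cover counting error only and leave out the spread between libraries. In the RefSeq annotation the spans of hoxb3a, hoxc3a, hoxa3a and hoxd3a overlap those of neighbouring Hox genes of groups 4 to 9, so the split of reads between these genes is uncertain.

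Among the central genes, hoxb7a, whose paralogs pattern the thorax in mouse, had 754 to 891 reads in each WT trunk library. It stood at 10.8, 10.2 and 10.3 CPM in WT trunk and at 15.5, 21.9 and 11.4 CPM in mutant trunk, and all 3 mutant libraries lay above all 3 WT libraries. Divided by library totals alone, without the normalisation factors, the ranges overlapped for hoxb7a and for hoxc4a, hoxb9a, hoxa9a and hoxa10b below. They stayed apart for hoxc11b, higher in the mutant, and for hoxb5a, lower in it. Levels of hoxb8a were 3.13, 3.57 and 3.02 CPM in WT trunk and 3.66, 5.68 and 3.03 CPM in mutant trunk. Those of hoxc8a were 7.94, 6.37 and 6.12 CPM in WT and 7.87, 3.71 and 5.07 CPM in the mutant, with mutant library 2 the lowest of the 6 for hoxc8a and the highest for hoxb8a. The level of hoxb6a was 1.92, 2.07 and 2.05 CPM in WT and 2.35, 4.3 and 2.0 CPM in the mutant. Its fellow group 6 gene hoxc6b stood at 3.28, 1.85 and 2.64 CPM in WT and at 1.94, 8.27 and 2.69 CPM in the mutant, where library 2 again set the group's spread. In WT trunk hoxb5a, which in zebrafish acts in the positioning of the pectoral fin, was at 1.08, 1.56 and 1.2 CPM, and in mutant trunk at 0.825, 0.95 and 1.01 CPM. The last central gene above 1 CPM was hoxc4a, at 0.668, 0.92 and 0.921 CPM in WT and 1.01, 1.21 and 0.97 CPM in the mutant. For both the genotypes did not overlap, with hoxb5a lower and hoxc4a higher in the mutant libraries. In EOM, hoxb8a had no read and hoxc8a had 1 read over all 6 libraries.

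The posterior genes held most of the Hox reads of trunk muscle, 60.4, 58.9 and 59.5% in the 3 WT libraries, although reads per gene also follow gene length. Groups 9 and 10, which in mouse act on thoracic and lumbar identity, were detected in every trunk library for each of their 9 genes. Of the group 9 genes, hoxb9a stood at 9.06, 8.48 and 6.85 CPM in WT trunk and 12.5, 12.7 and 10.4 CPM in mutant trunk, with no overlap. The level of hoxa9a was 0.844, 1.07 and 0.817 CPM in WT and 1.56, 2.99 and 1.13 CPM in the mutant, again with no overlap. That of its duplicate hoxa9b was 4.42, 3.87 and 3.91 CPM in WT and 4.06, 9.93 and 4.53 CPM in the mutant. The groups overlapped for hoxa9b because mutant library 1 lay within the WT range. For hoxc9a the values were 4.83, 3.69 and 3.83 CPM in WT and 4.47, 4.25 and 4.14 CPM in the mutant. For hoxd9a they were 10.7, 11.1 and 11.6 CPM in WT and 10.9, 15.3 and 11.2 CPM in the mutant. Both genes kept overlapping ranges.

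Group 10 reads numbered 2601 to 4108 per trunk library. The level of hoxa10b was 5.99, 4.74 and 6.64 CPM in WT trunk and 9.62, 7.03 and 7.22 CPM in mutant trunk, all 3 above WT. That of hoxb10a was 12.4, 12 and 17 CPM in WT and 14.8, 20.6 and 14.4 CPM in the mutant. It had 2 reads over the 3 WT EOM libraries, which put the trunk 2126-fold higher (95% exact binomial interval 588.1 to 17562.6). For hoxc10a the trunk values were 13.3, 11.3 and 14.3 CPM in WT and 13.7, 25.3 and 12 CPM in the mutant. For hoxd10a they were 9.07, 9.28 and 9.28 CPM in WT and 6.48, 12.1 and 8.52 CPM in the mutant. WT libraries were tight for hoxd10a and mutant libraries lay on both sides of them.

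Group 11, which in mouse acts on sacral identity and on the forearm and lower leg, had 671 to 1009 reads per trunk library. In WT trunk hoxa11b stood at 1.65, 1.24 and 0.736 CPM and in mutant trunk at 1.63, 2.54 and 1.11 CPM. The level of hoxc11a was 4.74, 3.76 and 3.82 CPM in WT and 4.37, 7.03 and 5.72 CPM in the mutant, and both genes overlapped between genotypes. Its duplicate hoxc11b stood at 1.17, 0.988 and 1.14 CPM in WT and at 2.25, 2.14 and 1.82 CPM in the mutant, and the groups did not overlap. For hoxd11a the values were 3.73, 2.88 and 3.21 CPM in WT and 4.3, 3.8 and 3.25 CPM in the mutant. In group 12 hoxd12a was at 1.18, 1.39 and 0.944 CPM in WT and at 0.292, 1.54 and 0.763 CPM in the mutant, where library 1 was the lowest of the 6.

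Of all paralog groups, group 13, the group of the tail and of the distal fin and limb, had the fewest reads in each WT trunk library. Its 6 genes together had 21 to 28 reads in a WT trunk library and 7 to 24 in a mutant one, and most of these came from hoxc13b, with 15 to 21 and 7 to 15 reads. In WT hoxc13b was called higher in trunk than in EOM, with a log2 difference of 3.01 (SE 0.77, adjusted p 0.0176, edgeR). At that gene 32.1% of the stranded reads of WT trunk lay on the opposite strand. No sense read of hoxa13a was found in any of the 12 libraries, and hoxa13b, hoxb13a, hoxc13a and hoxd13a never exceeded 5 reads. The other genes that never exceeded 5 reads were hoxb1a, hoxb8b and hoxb5b, of which hoxb5b had no read in any library. At these depths a count of 0 allows up to 3 reads per library, so absence of transcripts was not shown. For hoxb5b the RefSeq span also overlaps that of hoxb1b, and reads shared by overlapping genes are left out. The hoxbb cluster as a whole had no read in EOM and 5 to 36 reads per trunk library. The remaining members averaged below 1 CPM in every group and had at most 89 reads in a library, which was the count of hoxa11a in mutant trunk library 3.

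The reads of duplicate pairs were split unevenly in trunk muscle. In WT the b copy took 85.9 ± 3.88% of the reads of the hoxc6 pair, 81.7 ± 2.95% of the hoxa9 pair, 59.1 ± 7.62% of the hoxa11 pair and 21.2 ± 1.61% of the hoxc11 pair (SD, n = 3). It took 7.16 ± 4.4% of the hoxb6 pair, 1.01 ± 0.556% of the hoxb8 pair and none of 305 reads of the hoxb5 pair. Read shares within a library do not depend on normalisation but do depend on the length of each copy, so only changes between libraries compare expression. In RefSeq the spans of hoxb5b and hoxb6b overlap that of hoxb1b. Those of hoxb5a and hoxb6a overlap hoxb3a, and that of hoxc6a overlaps hoxc3a. Reads of overlapping genes are left out, so the shares of the hoxb5, hoxb6 and hoxc6 pairs are uncertain. In the mutant the b copy took 92 ± 4.41% of the hoxc6 pair, 76.4 ± 3.98% of the hoxa9 pair, 66.2 ± 18.3% of the hoxa11 pair and 27.2 ± 5.95% of the hoxc11 pair. Only for the hoxc11 pair were all 3 mutant shares (34.0, 23.3 and 24.2%) above all 3 WT shares (19.8, 20.8 and 23.0%), among these 4 pairs, and the gap between the closest libraries was small.

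Which Hox reads remained in EOM was then examined. Of the 48 members, 27 had no read in any WT EOM library and 30 had none in any mutant EOM library, against 3 in either trunk group. No member reached 1 CPM in EOM. More than 3 reads in every library of a group were found for hoxb5a and hoxd9a in WT EOM and for hoxb4a and hoxb5a in mutant EOM. The reads of hoxb5a numbered 11, 54 and 14 in WT EOM and 7, 21 and 10 in mutant EOM. It was 4.9-fold higher in WT trunk (95% exact binomial interval 3.81 to 6.36), the smallest tissue ratio of the 36 members tested, with a log2 difference of 2.37 (SE 0.53, adjusted p 0.00922, edgeR). Without WT EOM library 2 the log2 difference was 3.25. In the mutant it was 2.54 (SE 0.86) and did not pass (adjusted p 0.104), whereas DESeq2 gave 2.51 with an adjusted p of 0.0229. Removing mutant EOM library 2 moved the value to 3.4 (adjusted p 0.0605).

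The reads of hoxd9a numbered 7, 4 and 9 in WT EOM and 17, 0 and 2 in mutant EOM, so 1 mutant library held most of them. Its trunk level in WT was 169.8-fold higher (95% exact binomial interval 109.7 to 278.4), with a log2 difference of 7.38 (SE 0.34, adjusted p 2.69e-06, edgeR). The central gene hoxb4a, of which WT EOM had 0, 3 and 4 reads, had 6, 5 and 7 reads in mutant EOM. In trunk it had 27, 22 and 17 reads in WT and 4, 3 and 14 in the mutant, a log2 difference of -1.32 (SE 0.63) that did not pass (adjusted p 0.422, edgeR). In the mutants its trunk level was 1.78-fold that of EOM (95% exact binomial interval 0.902 to 3.54), an interval that includes equal levels. It had too few reads to be tested between the tissues in the mutant or between the genotypes in EOM. The difference between its genotype effects in trunk and EOM, a log2 value of -2.97 (SE 1.3), did not pass (adjusted p 0.934, edgeR). The summed photoreceptor and retina markers, from tissue that borders the eye muscles, were 10.8 to 21.6 CPM in WT EOM and 0.487 to 0.605 CPM in WT trunk, and their part in these few Hox reads was not tested.

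**Figure D2:**
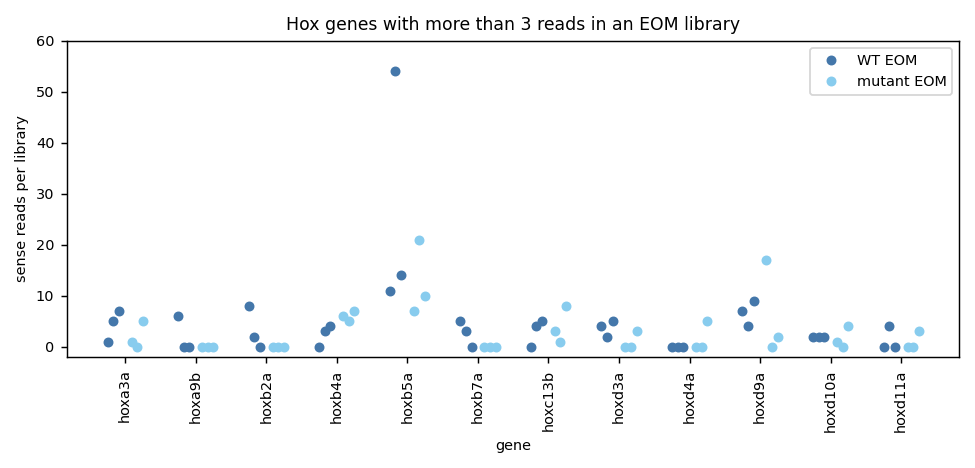
Sense reads per EOM library (y axis, linear) for the 12 Hox genes with more than 3 reads in at least 1 EOM library, with 1 point per library for WT and mutant. The gene hoxb5a reaches 54 reads in WT library 2, the highest Hox count of any EOM library, and hoxd9a reaches 17 in mutant library 1.

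The study asked how the loss of desmin alters gene expression within a tissue. In trunk muscle none of the 36 Hox members tested passed the threshold between genotypes, where 6 of 18041 genes, 0.0333%, did so. At an unadjusted p under 0.05 there were 5 members, 13.9% of those tested, near the 13.1% of all genes. That number moved with single libraries, to 0 without any one of the 3 WT trunk libraries. It was 1 without mutant trunk library 1, 4 without library 2 and 6 without library 3. It was 2 with library totals alone and 0 in a fit of all 12 libraries. The number of all genes at that p moved too, from 2366 of 18041. Without WT trunk library 1, 2 or 3 it was 1261 of 18534, 1106 of 18836 and 1529 of 18716. Without mutant trunk library 1, 2 or 3 it was 1916 of 18835, 3372 of 19033 and 3733 of 18613. DESeq2 also called no member, with 4 at an unadjusted p under 0.05. Groups that did not overlap were found for 12 members, 33.3%, against 26.8% of all genes. Of these 12, 6 were higher in the mutant, and hoxa1a, hoxa5a, hoxb4a, hoxb5a, hoxc1a and hoxc13b were lower. The 5 members were hoxa1a, with a log2 difference of mutant to WT of -1.76 (SE 0.73, adjusted p 0.375, edgeR), hoxc11b with 0.91 (SE 0.3, adjusted p 0.317), hoxb9a with 0.55 (SE 0.21, adjusted p 0.35), hoxb7a with 0.65 (SE 0.27, adjusted p 0.375) and hoxa9a with 1.06 (SE 0.45, adjusted p 0.38). The lower value, which ran from -2.6 to -1.39 without 1 library, belonged to an anterior gene of few reads, 21, 16 and 36 in WT and 4, 1 and 12 in the mutant. The higher values belonged to genes of groups 7, 9 and 11.

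**Figure D3:**
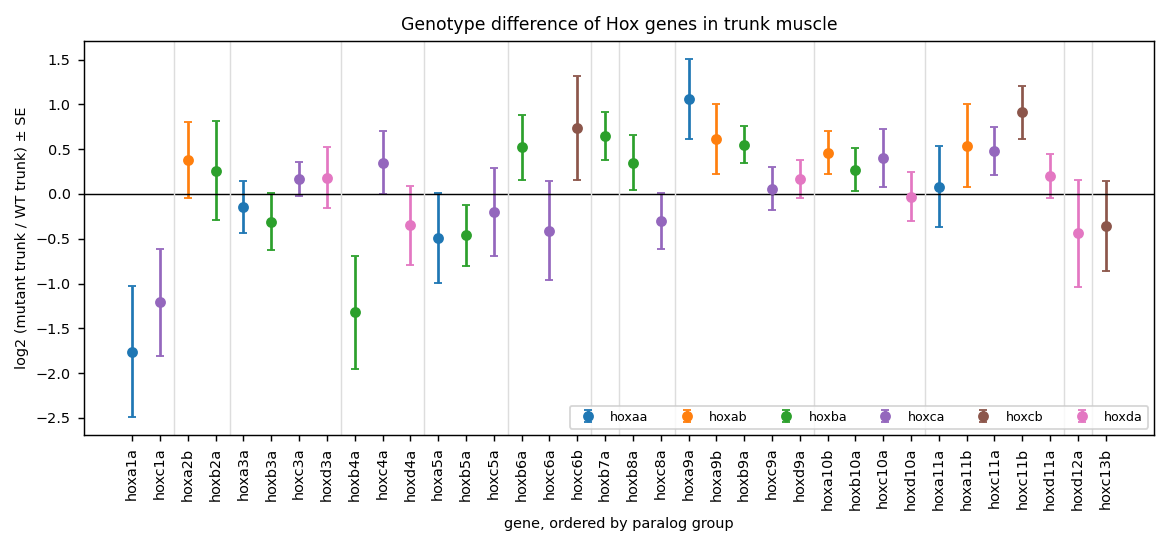
Log2 difference between mutant and WT trunk muscle (y axis, bars are standard errors from the edgeR fit of 3 against 3 libraries) for the 36 Hox genes tested, ordered by paralog group and coloured by cluster. The values run from -1.76 for hoxa1a to 1.06 for hoxa9a, and 13 of the 16 genes of groups 9 to 13 lie above 0 (4 of the 16 with library totals alone).

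Read by class, the posterior members had the most positive values. Of the 16 posterior members tested, 13 had a positive log2 difference and 3 a negative one, with a median of 0.33. The 12 central members were split 5 to 7 with a median of -0.25, and the 8 anterior members 4 to 4 with a median of 0.01. Over all 36 members 22 were positive, 61.1%, and the median was 0.18, where 48.4% of all genes were positive and their median was -0.03. These directions depended on the scaling. With library totals alone the median of all genes moved to -0.5, and 4 posterior members were positive and 12 negative, with a median of -0.21. The central and anterior medians were then -0.76 and -0.48. A change of scaling moves all genes by a similar amount. That the posterior median again lay above the other 2 therefore adds no support. No test of the classes was made, since their members were chosen with these results known.

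Mutant trunk library 2 weighed on these values. It held the highest of the 6 trunk levels for 20 of the 36 members, 55.6%, and for 29.5% of all genes. It also held the lowest of the 6 for 5 members, 13.9%, and for 40% of all genes. Without it, 38 members were tested, 19 with a positive and 19 with a negative difference, and the median was 0.01. Of the 17 posterior members then tested, 12 were positive, with a median of 0.17, and the central and anterior medians were -0.17 and -0.22. No member passed in that fit, although 251 of 19033 genes did. The median coefficient of variation of the members tested was 14.5% in WT trunk and 28.7% in mutant trunk, and that of all genes was 15.3% and 37.4%.

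**Figure D4:**
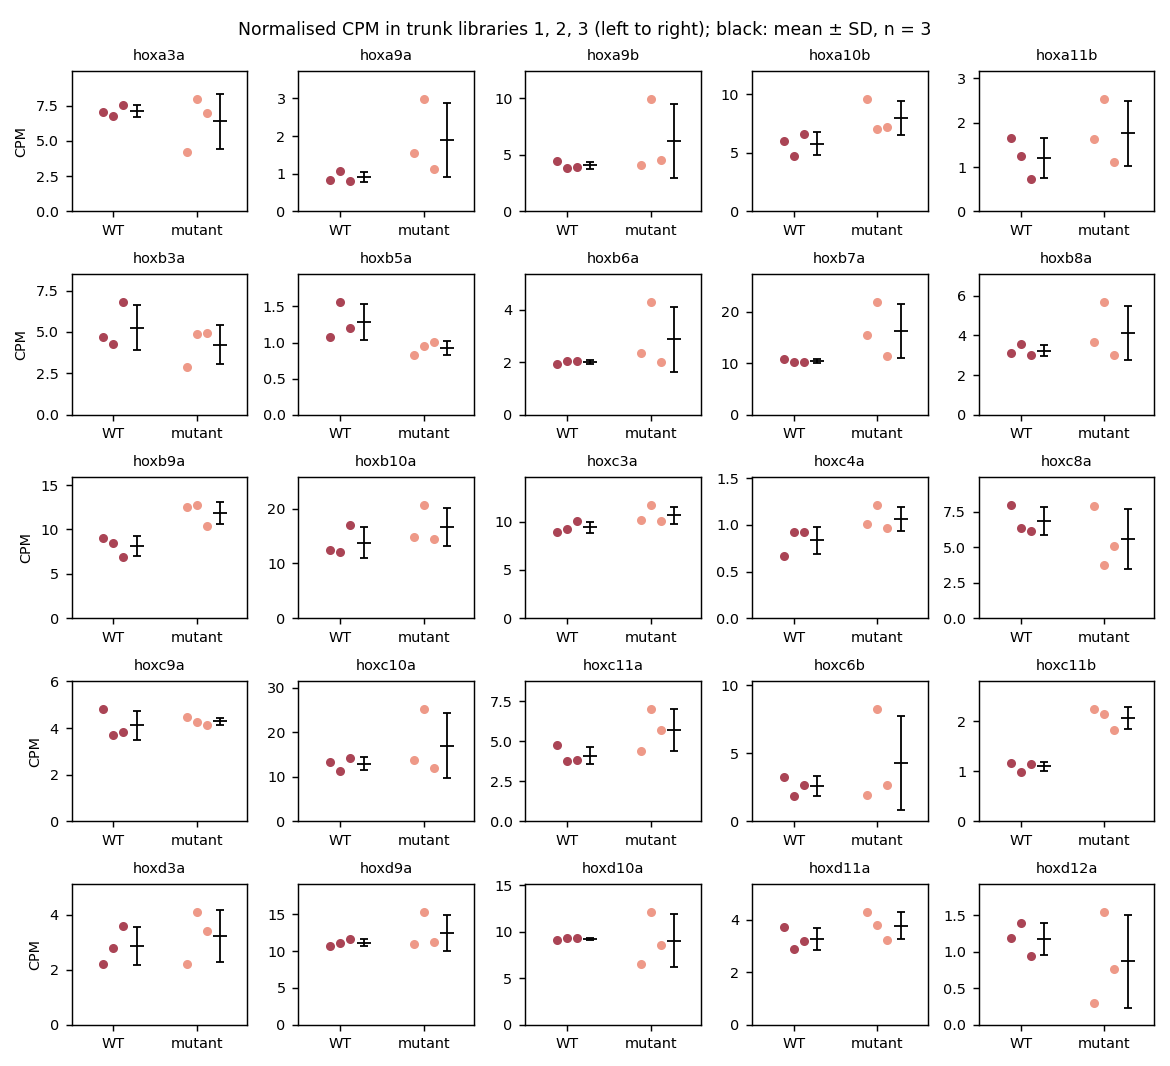
Normalised CPM (y axes, linear, each from 0) in the 3 WT and 3 mutant trunk libraries for the 25 Hox genes that averaged at least 1 CPM in any group, with the mean and SD in black. Mutant library 2, the middle mutant point, is the highest point for genes such as hoxc6b (8.27 CPM) and hoxc10a (25.3 CPM), and the groups are apart for hoxc11b and hoxb9a.

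Shares of the Hox reads within each library, which no scaling factor changes, moved by a few percentage points. Posterior members took 62.4, 62.1 and 61.8% of the Hox reads in mutant trunk, against 60.4, 58.9 and 59.5% in WT. The means were 62.1 ± 0.307% and 59.6 ± 0.765% (SD, n = 3) and the groups did not overlap. On the normalised scale 26.8% of all genes did not overlap between these groups either, and the difference in shares was not tested. The overlapping spans of the group 3 genes also make the split of reads between classes uncertain. Anterior members took 14.0, 14.5 and 18.7% in mutant trunk and 17.4, 18.7 and 20.7% in WT, and central members 19.5 to 23.6% and 19.7 to 22.4%, both with overlap. The largest anterior contribution came from the group 3 genes, whose reads numbered 1133 to 1963 per mutant library. Summed levels of marker lists of other cell types lay apart between the genotypes in several cases. These sums use the normalisation factors, which were 0.555 to 0.922 in mutant trunk and 0.963 to 1 in WT trunk. A lower factor raises a level. Whether the sums stay apart with library totals alone is not given here. The neuron and spinal cord markers summed to 25.1, 20.3 and 26.4 CPM in mutant trunk. All 3 lay below the WT trunk libraries, at 109.7, 30 and 36.6 CPM, of which library 1 stood far above the others. Of the 13 tested, 5 had an unadjusted p under 0.05, against 13.1% of all genes, with a median log2 difference of -1.82 and none called. Of this list, slc18a3a was at 0 in all 3 mutant trunk libraries. The 12 leukocyte markers summed to 466.2, 523.9 and 370.3 CPM in mutant trunk and to 183.5 to 215.6 CPM in WT trunk. Of the 11 tested, 9 had an unadjusted p under 0.05, against the same 13.1% of all genes, and none was called. The 7 endothelium markers summed to 273.5, 188.3 and 293.7 CPM in mutant trunk, below the 314.1 to 397.9 CPM of WT trunk. Sums of the keratinocyte, muscle stem cell and pigment cell markers were higher in all 3 mutant trunk libraries than in any WT one, at 491.7 to 763.3, 41.7 to 53.1 and 23.6 to 30.7 CPM against 392.4 to 471.1, 27 to 34.9 and 20.6 to 22.2 CPM. Their median log2 differences were 0.13 over 9 tested, -0.27 over 6 and 0.26 over 9, with none called. The sum of the stem cell list thus rose while its median was negative. In that list myod1 averaged 13.4 CPM in WT trunk and 34.1 CPM in mutant trunk, and pax7a 0.842 and 0.316 CPM. The 7 cartilage markers overlapped, at 2.23 to 3.87 CPM in the mutant and 3.74 to 19.7 CPM in WT, with a median log2 difference of -2.19 over 5 tested and none called. The part of these lists in the Hox values was not tested.

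In EOM the genotypes could be compared for 1 Hox gene. The level of hoxb5a was 0.139, 0.47 and 0.126 CPM in WT EOM and 0.103, 0.329 and 0.072 CPM in mutant EOM. The ranges overlapped, although the mutant library was the lower one in each of the 3 same-numbered pairs. Its log2 difference of -0.59 (SE 0.93, adjusted p 0.999, edgeR) did not pass, where 57 of 18804 genes, 0.303%, did. Same-numbered EOM libraries deviated together, and with the replicate number as a block the value was -0.58 (adjusted p 0.866). Without WT EOM library 2 it was 0.31, in a fit that kept the same-numbered mutant library and so broke a pair. The anterior genes together had 14, 9 and 14 reads in WT EOM and 1, 0 and 8 in mutant EOM, lower in each same-numbered pair and too few to test gene by gene. The count of 0 fell in mutant EOM library 2, the EOM library with the fewest genes detected. Whether desmin loss acted differently in the tissues was examined for 36 members by an interaction term over all 12 libraries. None passed, where 2 of 20041 genes, 0.00998%, did. Members without a read in any EOM library, such as hoxb9a (SE 627.21) and hoxc3a (SE 190.47), had no EOM genotype effect to estimate. Such members could not pass, although they are counted among the 36, so the term does not answer the question for them. An unadjusted p under 0.05 was found for 5 members, 13.9%, against 4.43% of all genes, and DESeq2 called none. These were hoxb7a, hoxb2a, hoxd4a, hoxa9b and hoxb4a, with adjusted p of 0.934 for each. All 5 rest on EOM groups with at most 18 reads, such as 5, 3 and 0 reads of hoxb7a in WT EOM against none in mutant EOM.

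The genes next to the clusters did not share the contrast between tissues as a group. In file order 8 rows were taken on either side of each cluster. Among these flanking rows 47 averaged at least 1 CPM in WT EOM and 49 in WT trunk. Of the 75 tested in WT, 10 were higher in trunk and 7 lower, where 13.8% and 13.1% of all genes were. The median log2 difference of these flanking rows was 0.09. Among the 24 other rows that lie between Hox rows, 6 had enough reads and 4 of these were higher in trunk. Those 4 had 0 to 2 reads in the WT EOM libraries. They passed the filter on low counts through the trunk libraries, so their number is a description and not support for a difference of these rows. The one with the most reads, a gene without a symbol in hoxca, had none in EOM and 110 to 157 per WT trunk library. The 2 that did not differ were calcoco1a, a calcium-binding coiled-coil gene that lies in file order between hoxc10a and the rest of the hoxca cluster, at 61.8 CPM in WT EOM and 46.0 CPM in WT trunk, and a long intergenic RNA (ENSDARG00000094560.2), at 0.848 and 0.808 CPM. The flanking rows higher in trunk included nfe2l1a next to the hoxba cluster, by a log2 value of 3.86 (SE 0.42, adjusted p 0.000185, edgeR). Next to the hoxcb cluster, calcoco1b was higher in trunk by a log2 value of 3.69 (SE 0.61, adjusted p 0.00214, edgeR), with 416 to 2486 reads over the WT trunk libraries. Beside hoxaa lie 2 rows named for the homeobox gene evx1, of which 1 had no read in any library and the other, ENSDARG00000100087.2, had at most 10, and evx2 beside hoxda had at most 5.

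**Figure D5:**
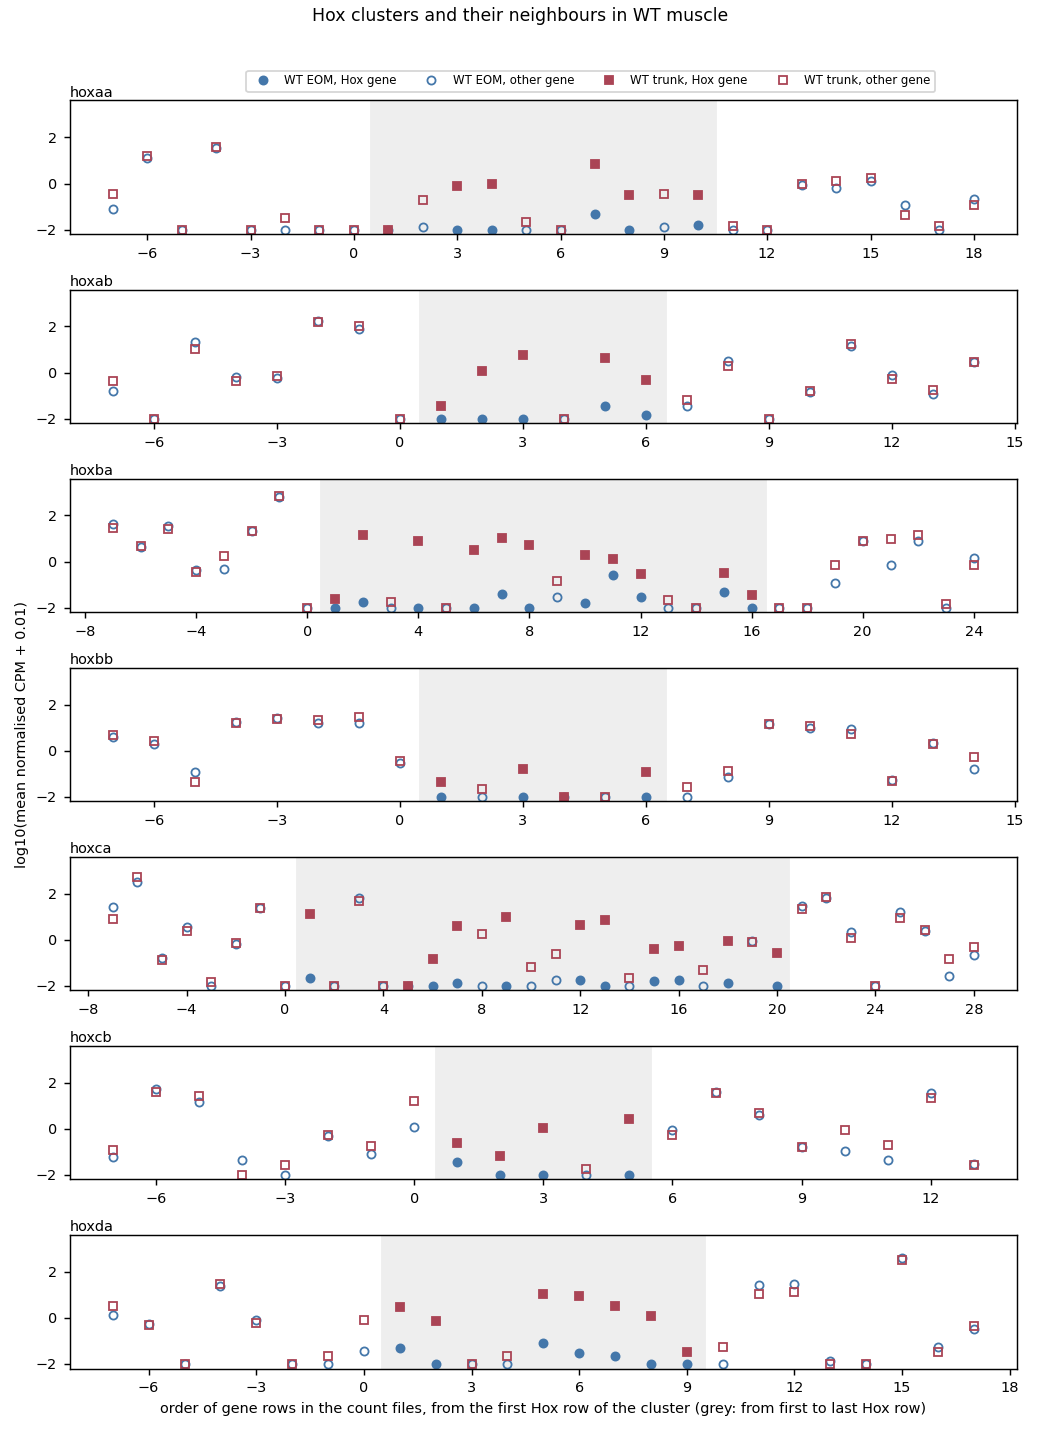
Mean level in WT EOM (circles) and WT trunk (squares), as log10 of normalised CPM plus 0.01, for the gene rows of the 7 Hox clusters and 8 rows on either side, in the order of the count files. Filled symbols are Hox genes, and grey marks the stretch from the first to the last Hox row. Outside the grey stretches circles and squares mostly coincide, while inside them the squares of most Hox genes lie above the circles, except where a gene such as hoxa13a, hoxb5b or hoxc13a had no read in either.

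Of the genes that act with or upstream of Hox proteins, meis1a, meis1b and meis2a were higher in trunk. Meis and Pbx proteins are homeodomain cofactors that bind DNA together with Hox proteins. Of 13 cofactor genes matched, 11 were tested in WT, with 4 higher and 1 lower in trunk and a median log2 difference of 0.15, where 13.8% of all genes were higher and 13.1% lower. Not all Meis genes were higher, as meis3 averaged 0.26 CPM in WT EOM and 0.11 CPM in WT trunk. The level of meis1a was 14.4 ± 1.71 CPM in WT trunk and 0.184 ± 0.136 CPM in WT EOM (SD, n = 3), a log2 difference of 6.37 (SE 0.48, adjusted p 2.16e-05, edgeR). Both meis2a, with 3.96 (SE 0.33, adjusted p 3.8e-05), and meis1b, with 3.62 (SE 0.24, adjusted p 1.04e-05), were also higher in trunk, while pbx3b was lower by -1.8 (SE 0.41, adjusted p 0.0109). In the mutants 3 were higher, the same Meis genes, at 8.27 for meis1a, 4.61 for meis2a and 4.07 for meis1b. Of all genes tested in the mutants, 3.2% were called higher in trunk.

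Retinoic acid sets Hox expression in embryos. Of 22 genes of its pathway tested in WT, 4 were higher and 9 lower in trunk, against the same 13.8% and 13.1% of all genes. In the mutants none was called higher, where 3.2% of all genes were. The 3 called lower there were rdh10a (-2.22, adjusted p 0.00766, edgeR), crabp2a (-2.0, adjusted p 0.00927) and crabp2b (-1.84, adjusted p 0.0386). The share of all genes called lower in the mutants is not given here, so that count stands without a background. The lower ones in WT included cyp26c1 (-3.15, adjusted p 0.0164, edgeR) and cyp26a1 (-2.67, adjusted p 0.0165), which degrade retinoic acid. Neither was called in the mutants, and cyp26c1 varied between the WT EOM libraries (0.886 ± 0.815 CPM). Also lower in WT were dhrs3a (-2.52, adjusted p 6.33e-05) and rdh10a (-2.48, adjusted p 0.000154), of which rdh10a acts in retinoic acid synthesis. Polycomb proteins silence Hox clusters and Trithorax proteins keep them active, and 34 of their genes were tested. In WT 6 were higher and 3 lower in trunk, counts near the shares of all genes. In the mutants 1 was higher, where 3.2% of all genes were, and none was lower. The higher ones in WT included kdm6bb with 2.03 (adjusted p 0.000437, edgeR), dot1l with 1.77 (adjusted p 0.00267) and kdm6ba with 1.76 (adjusted p 0.0017). Of these, kdm6bb and kdm6ba encode demethylases of the Polycomb mark. The lower ones in WT included cbx7a, a Polycomb subunit, with -1.38 (adjusted p 0.00434). In the mutants kdm6ba was the one called, with 1.61 (adjusted p 0.0452, edgeR). There cbx7a was not called between the tissues, at 20 ± 11.4 CPM in EOM and 25.8 ± 6.42 CPM in trunk (SD, n = 3). In WT it stood at 29.4 ± 2.64 and 11.1 ± 3.79 CPM. Among 35 regulators of head and trunk position tested in WT, 13 were higher and 13 lower in trunk, against 13.8% and 13.1% of all genes. The higher ones included en1a, an engrailed gene, with 6.47 (adjusted p 3.88e-05), and the lower ones musculin (msc), a transcription factor of head muscles, with -7.17 (adjusted p 7.2e-06). None of the 9 ParaHox and Evx genes had enough reads to be tested in WT. No gene of these lists passed between genotypes in trunk or EOM, or in the interaction.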

How the data were processed

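Each library has a file of raw counts per gene, deposited by the authors in the layout of the aligner STAR. STAR, DESeq2 and GRCz11 are named in the submitters' processing notes, with no version. Other steps are not given in the sources used here. Per the labels, libraries were poly-A selected and stranded. The counts on the sense strand, 96.43 to 97.26% of the stranded reads, were used. The layout counts reads mapped to 1 place, and reads of overlapping genes are left out. The 4 summary lines were left out of library sizes.

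Symbols came from a gene name table. Of the 48 members, 15 were matched by that symbol, 23 through the single RefSeq gene it could mean and 10 through the chromosome of neighbouring rows, a rule that was right for 99.5% of 9720 genes of known place. RefSeq (GRCz12tu) served for names and overlaps alone.

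Fits used edgeR 4.0.16 in R 4.3.3 (quasi-likelihood F test, which is two-sided, TMM factors, default filter with a minimum count of 10 and a total of 15, Benjamini-Hochberg adjustment over all genes tested, threshold 0.05), with only the 6 libraries compared or all 12 for the interaction. DESeq2 1.42.0, other scalings, no filter, unstranded counts, a replicate block and leaving out each library were alternatives. The fits were also run on simulated counts with known changes, and the outcome is not given here. Those counts were made without differences in normalisation factors, so they do not vouch for the fits under such differences. Values per library are given for members that averaged 1 CPM in any group or had more than 3 reads in every library of an EOM group. The members and lists were chosen with earlier results of these data known. Replicates differed by more than counting noise (chi-square per gene 91.3 to 1133.3). Same-numbered libraries of the 2 EOM groups deviated together (correlations 0.44, 0.4 and 0.69), so the numbers pair them, and no other comparison met the rule of 0.1 in every pair.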

Additional observations from a re-analysis of the deposited data

Results flagged for a closer look

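Reads on the strand opposite to each Hox gene are left out of the comparisons. Only at hoxd10a, of the 48 members, did they exceed 3 reads and the opposite-strand share of the library in every one of the 6 trunk libraries. They numbered 311 over the 6 trunk libraries, 21 to 73 in each, against 3 over the 6 EOM libraries. They made up 7.65% of the stranded reads at that gene, where opposite-strand reads made up 2.76 to 3.35% of the stranded reads of the trunk libraries as a whole. Other members had opposite-strand reads in larger shares. At hoxb9a they numbered 18, 56 and 31 in WT EOM and 94, 88 and 21 in mutant EOM, where the gene had no sense read. At hoxa13a, also without a sense read, they numbered 0, 6 and 8 in WT trunk and 9, 31 and 14 in mutant trunk. At hoxb5a mutant EOM library 2 held 63 of the group's 66, against 38 sense reads over the 3 libraries. The source of these reads was not tested.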

How the results depend on the processing

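The number of Hox members called higher in trunk was 34 to 37 in WT and 26 to 30 in the mutant when 1 library was left out at a time, and no alternative that was run called a member between genotypes or in the interaction. Counts over all genes moved more. For trunk against EOM in WT, 1 fit of all 12 libraries called 1968 genes and leaving out a library 3103 to 7732. In the mutant DESeq2 called 1815, the fit of 12 libraries 2313, and leaving out a library 515 to 1644. Between genotypes in trunk the count was 602 with DESeq2, 3 with library totals alone, 52 without the filter, 14 with unstranded counts, 52 in the fit of 12 libraries and 0 to 251 without 1 library. In EOM it was 139 with DESeq2, 2 with totals alone, 120 without the filter, 34 in the fit of 12 libraries and 0 to 78 without 1 library. For the interaction it was 12 with DESeq2, 0 with totals alone, 1 with unstranded counts and 1 to 3 without 1 library.

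The replicate block moved the count of all genes to 0 in trunk, where the numbers do not pair the libraries, and to 582 in EOM, where they do. It called no Hox member between genotypes in either tissue. The log2 difference of hoxb5a between genotypes in EOM ran from -1.52 to 0.31 without 1 library and turned sign without WT EOM library 2. Each of those fits kept the same-numbered library of the other genotype and so broke a pair. The cause of these moves was not tested. The summed Hox level of mutant trunk was 165.3 CPM and 113.3 CPM with totals alone, so whether it lay above WT trunk (138.0 and 135.9 CPM) depended on scaling. Depth limits EOM most, where at most 88 Hox reads a library were counted.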

Other observations

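A long intergenic RNA inside the hoxca cluster, ENSDARG00000094560.2, was chosen after its values were seen. It lies in file order between hoxc4a and hoxc1a. It had at least 67 reads in every WT EOM library and 1 to 5 in the mutant EOM libraries, a log2 difference of -4.66 (SE 0.88, adjusted p 0.01, edgeR). In trunk it had 51 to 81 reads in WT and 0 to 37 in the mutant, with a log2 difference of -1.67 (SE 0.96, adjusted p 0.486). The interaction, 2.98 (SE 1.31), did not pass (adjusted p 0.934).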
